A study of Homo sapiens with 6 samples.

Results

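The genes described here were 10 targets of the transcriptional co-activators YAP and TAZ, which act through the DNA-binding TEAD factors: ANKRD1, CCN1, CCN2, THBS1, AMOTL2, FJX1, CRIM1, AXL, F3 and MYOF. They were taken by gene symbol from the 17631 genes of the deposited tables, and all 10 were found. Cells of MDA-MB-231, a human cell line from a triple-negative breast cancer with a mesenchymal-like character, had been treated for 24 h with vehicle or with 30 µM PDBAG1, a synthetic peptide made of a GPD1-derived stretch joined to a cell-penetrating sequence, and RNA was sequenced in 3 vehicle and 3 PDBAG1 libraries. All libraries came from this single line in DMEM with serum. The labels number the libraries 1 to 3 in each group, and do not say whether these came from separate cultures or passages, so error values measure the spread between these libraries, which may be technical. Cell density at treatment or at harvest, which is known to control YAP and TAZ, is not recorded for these libraries. The 10 genes were chosen by a rule that drew on this same PDBAG1 contrast, since wide differences of THBS1 and ANKRD1 had already been seen in these 6 libraries. Their differences between the groups are therefore given as a description, with the error of the fit but no test, and they support no statement on the pathway. Counts of these genes past a threshold stand only beside the share of all genes. The comparison lists below were also set with earlier results of these data known. Their adjusted p values and counts describe the fit and are no independent test of those lists.

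YAP (gene YAP1) and TAZ (gene WWTR1) are held in the cytoplasm and marked for breakdown when the Hippo kinases MST1/2 and LATS1/2 phosphorylate them, as happens in dense or rounded cells. On stiff matrix, in spread cells, or when the kinases are silent, they enter the nucleus, bind TEAD1 to TEAD4 and switch on genes for matrix signalling, adhesion and growth. In basal-like breast cancer cells YAP and TAZ are often active, and MDA-MB-231 cells carry a mutation of the Hippo activator NF2. ANKRD1, CCN1 and CCN2 are the targets most often read as a measure of YAP and TAZ activity.

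The upstream sequences of ANKRD1, CCN2 and THBS1, the genes lowest relative to vehicle, are shown with that of MYOF, the gene that was higher, because TEAD factors are known to bind the letters GGAATG, which read as CATTCC on the other strand. RefSeq promoter windows of build GRCh38.p14, from 250 bases before to 50 after each annotated start, were available for 8 of the 10 genes. CCN1 and CRIM1 had none in the table. The stretches below run 5′ to 3′ on the strand of the gene, hold the 250 bases before the start and no annotated exon, and carry the TEAD core in capitals. They lie at chr6:131951373-131951622 (minus strand, CCN2), chr10:90921088-90921337 (minus strand, ANKRD1), chr15:39580829-39581078 (plus strand, THBS1) and chr10:93482335-93482584 (minus strand, MYOF).
CCN2: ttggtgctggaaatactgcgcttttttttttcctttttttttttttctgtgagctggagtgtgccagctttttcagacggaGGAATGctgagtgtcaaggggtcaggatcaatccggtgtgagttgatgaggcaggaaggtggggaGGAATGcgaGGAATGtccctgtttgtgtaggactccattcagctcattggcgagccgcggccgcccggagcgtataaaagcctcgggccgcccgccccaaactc
ANKRD1: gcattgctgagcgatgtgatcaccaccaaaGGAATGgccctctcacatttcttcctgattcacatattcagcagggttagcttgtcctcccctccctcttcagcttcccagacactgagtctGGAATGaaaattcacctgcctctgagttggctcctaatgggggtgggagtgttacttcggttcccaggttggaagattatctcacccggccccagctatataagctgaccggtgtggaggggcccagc
THBS1: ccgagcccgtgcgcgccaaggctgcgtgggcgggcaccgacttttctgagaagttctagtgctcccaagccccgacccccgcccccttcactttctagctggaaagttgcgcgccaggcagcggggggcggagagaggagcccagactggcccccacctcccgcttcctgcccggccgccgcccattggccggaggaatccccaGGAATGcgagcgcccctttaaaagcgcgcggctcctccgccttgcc
MYOF: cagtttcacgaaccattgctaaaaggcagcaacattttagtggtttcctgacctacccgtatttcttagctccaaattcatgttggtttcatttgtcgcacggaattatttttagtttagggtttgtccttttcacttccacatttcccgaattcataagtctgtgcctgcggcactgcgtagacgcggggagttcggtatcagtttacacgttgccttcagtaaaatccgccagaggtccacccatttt

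CCN2 held 3 TEAD cores, at bases 169 to 164, 104 to 99 and 95 to 90 before the start. ANKRD1 held 2, at bases 220 to 215 and 128 to 123, and THBS1 held 1, at bases 46 to 41. AMOTL2 and AXL, which have more than 1 annotated start, each held 1 in the window of the downstream start, 69 to 64 and 212 to 207 bases before it. The AMOTL2 match lay within an annotated exon of AMOTL2. No TEAD core was found in the windows of FJX1, F3 and MYOF. Over the 35114 complete windows available, from 27303 genes, 14% held at least 1 core on either strand, 1.37% at least 2 and 0.128% at least 3. A match describes letters in this window only, and bound enhancers outside it would not be seen.

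The motif TGANTCA, the site of the AP-1 factors that are known to sit beside TEAD at many enhancers, was found in 2 of the 8 genes. F3 held 2 copies, at bases 223 to 217 and 210 to 204, in an exon annotated to another gene. ANKRD1 held 1, at bases 195 to 189. Among all windows, counted singly and not by gene, 7.71% held it on either strand. The CArG box of the actin-responsive factor SRF was found in none of the 8 genes and in 1.29% of all windows.

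**Figure D1:**
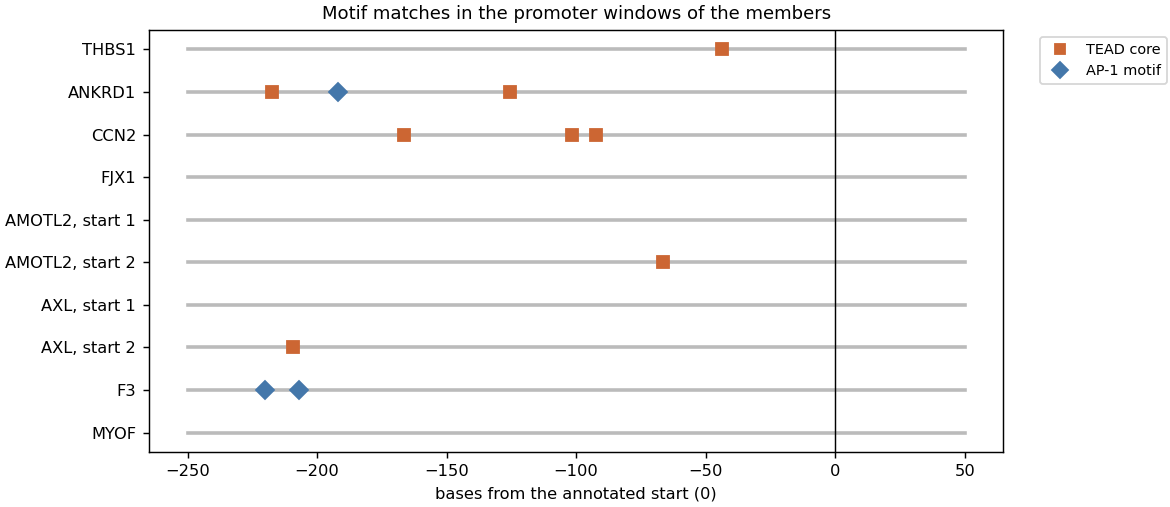
Positions of the TEAD core (squares) and the AP-1 motif (diamonds) in the promoter windows of the 8 target genes with a window, in bases from the annotated start. CCN2 holds 3 TEAD cores, ANKRD1 holds 2, and THBS1 and the downstream starts of AMOTL2 and AXL hold 1 each.

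Of the target genes, 9 were lower with PDBAG1 and MYOF was higher, and in every gene the 3 PDBAG1 values lay apart from the 3 vehicle values. In bulk libraries, less RNA per cell and fewer cells that express a gene cannot be told apart. The summed level of the 10 genes was 2723 to 2821 TPM (a length-normalised share of the transcripts of each library) with vehicle and 1835 to 1978 TPM with PDBAG1. In a limma fit across the 12582 genes that reached 1 TPM in 3 or more libraries, which all 10 did, 9 of the 10 genes were lower and 1 was higher at a Benjamini-Hochberg adjusted p under 0.05. Over all genes tested, 15.9% were lower and 21.7% were higher at that threshold. With a change of at least 1.5-fold as well, the study's limit, 4 of the 10 genes were lower (THBS1, ANKRD1, CCN2 and FJX1) and 0 were higher, against 0.477% and 2.86% of all genes tested. All 3 PDBAG1 values lay under all 3 vehicle values in 9 of the 10 genes and in 20.2% of all genes tested. The share of all genes without overlap in the direction of MYOF was not counted. Because the contrast itself guided the choice of these genes, nothing is read from these counts. The log2 difference (the mean of log2(TPM + 1) with PDBAG1 minus that with vehicle) had a median of -0.56 for the 10 genes and 0.03 for all genes tested.

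**Figure D2:**
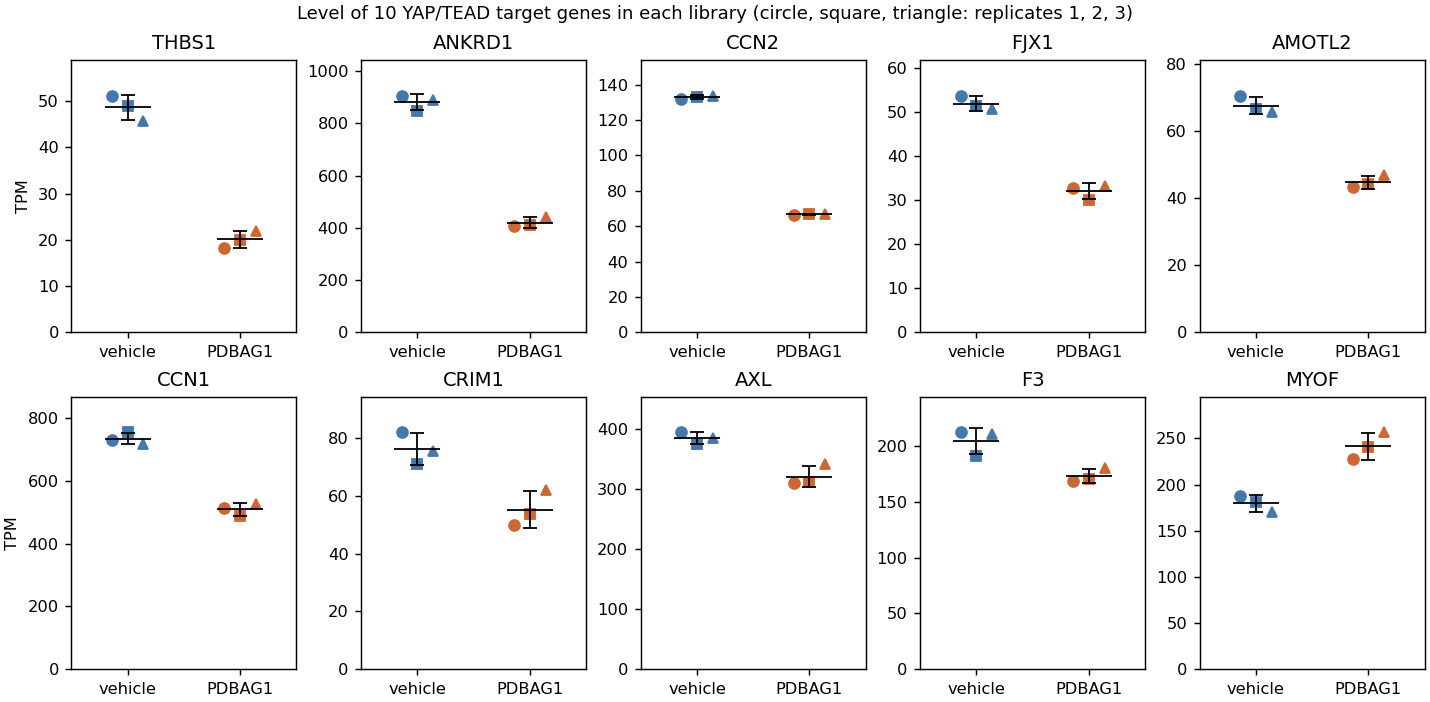
Level of each target gene in TPM (vertical axes from 0, one scale per gene) in the 3 vehicle and 3 PDBAG1 libraries. Points are single libraries, and bars give the mean and SD of 3. The groups do not overlap in any gene, and MYOF is the gene that is higher with PDBAG1.

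The secreted matricellular proteins come first. THBS1 encodes thrombospondin-1, which binds CD47 and CD36, restrains angiogenesis and activates latent TGF-beta. It lies on chromosome 15, 39581079 to 39599466 (GRCh38, GENCODE v44), with 22 exons in its canonical transcript. Its level was 51.2, 49.0 and 45.7 TPM in vehicle replicates 1 to 3 and 18.3, 20.0 and 21.98 TPM in PDBAG1 replicates 1 to 3. The highest PDBAG1 library thus lay far under the lowest vehicle library. The mean with PDBAG1, 20.1 ± 1.85 TPM, was 41.3% of that with vehicle, 48.6 ± 2.75 TPM (SD, n = 3 per group), with a log2 difference of -1.24 (standard error 0.07), the fourth lowest of all genes tested. Without PDBAG1 replicate 3 it was -1.30, and with a pseudocount of 5 it was -1.10.

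CCN2, formerly CTGF, is a matrix-associated growth factor that binds integrins and promotes fibrosis. It lies on chromosome 6, 131948176 to 131951372, with 5 exons. It was at 132, 133 and 134 TPM with vehicle and at 66.6, 66.8 and 66.9 TPM with PDBAG1. These values spread less between libraries than those of any other target gene, with a coefficient of variation of 0.667% with vehicle and 0.223% with PDBAG1. The PDBAG1 mean of 66.7 ± 0.148 TPM was 50.2% of the vehicle mean of 133 ± 0.888 TPM (SD, n = 3 per group), and the log2 difference was -0.98 (standard error 0.04). The error is from the fit across all genes, which draws on genes of like level.

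CCN1, formerly CYR61, is the close relative of CCN2 and supports adhesion and migration through integrins. It lies on chromosome 1, 85580761 to 85584589, with 5 exons. Its values were 731, 756 and 719 TPM with vehicle and 515, 487 and 526 TPM with PDBAG1. The difference was smaller in proportion than that of CCN2: the mean went from 735 ± 18.5 to 509 ± 19.8 TPM (SD, n = 3 per group), or 69.3% of vehicle, with a log2 difference of -0.53 (standard error 0.04). CCN1 was 5.53 ± 0.150 times as abundant as CCN2 with vehicle and 7.63 ± 0.296 times with PDBAG1 (SD, n = 3 per group), and this ratio within a library, which a scale factor per library does not move, did not overlap between the groups.

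ANKRD1 encodes an ankyrin repeat protein induced in stressed heart muscle and is among the most sensitive YAP targets. It lies on chromosome 10, 90912096 to 90921087, with 9 exons. It was the most abundant of the target genes with vehicle, at 906, 848 and 891 TPM, which placed it at rank 150 of the 17631 genes. With PDBAG1 it was at 408, 410 and 442 TPM. No PDBAG1 library came near the lowest vehicle library, and the mean of 420 ± 19.5 TPM was 47.6% of the vehicle mean of 882 ± 29.8 TPM (SD, n = 3 per group; log2 difference -1.07, standard error 0.04). The order of the most abundant targets turned over with it: ANKRD1 stood at 1.2 ± 0.0669 times CCN1 with vehicle and at 0.825 ± 0.0289 times CCN1 with PDBAG1 (SD, n = 3 per group).

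AMOTL2 and FJX1 encode proteins that act back on growth control. AMOTL2, an angiomotin of cell junctions that binds and restrains YAP, lies on chromosome 3, 134355347 to 134375479. Its level was 70.5, 66.5 and 65.7 TPM with vehicle and 43.3, 44.1 and 46.8 TPM with PDBAG1. The PDBAG1 mean was 66.2% of the vehicle mean, and the log2 difference of -0.58 (standard error 0.05) lay just short of the 1.5-fold limit. FJX1, the relative of the fly planar polarity kinase four-jointed, is a gene with 1 exon on chromosome 11, 35618460 to 35620865. It was at 53.7, 51.3 and 50.6 TPM with vehicle and at 32.8, 30.0 and 33.2 TPM with PDBAG1, a log2 difference of -0.68 (standard error 0.06). In neither gene did a PDBAG1 library reach the lowest vehicle library.

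The transmembrane proteins CRIM1, AXL and F3 showed smaller differences. CRIM1 tethers growth factors of the BMP family at the cell surface (chromosome 2, 36355778 to 36551135). It had the widest spread of the 10 genes, at 82.1, 71.2 and 75.6 TPM with vehicle and 49.8, 53.8 and 62.1 TPM with PDBAG1, and a log2 difference of -0.46 (standard error 0.07) that ranged from -0.55 without PDBAG1 replicate 3 to -0.39 without PDBAG1 replicate 1. AXL, a receptor tyrosine kinase linked to invasion and drug resistance (chromosome 19, 41219223 to 41261766), was at 394, 375 and 384 TPM with vehicle and at 309, 311 and 341 TPM with PDBAG1. The PDBAG1 mean of AXL was 83.4% of the vehicle mean (log2 difference -0.26, standard error 0.04). F3, or tissue factor, which starts the extrinsic clotting cascade (chromosome 1, 94529173 to 94541759), was at 213, 192 and 211 TPM with vehicle and at 169, 171 and 181 TPM with PDBAG1. The log2 difference of F3 was -0.24 (standard error 0.05), the smallest of the 9 genes that were lower.

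MYOF encodes myoferlin, a ferlin that repairs and fuses membranes and is high in invasive breast cancer cells. It lies on chromosome 10, 93306429 to 93482334, with 54 exons. Its level was 187, 181 and 170 TPM with vehicle and 227, 241 and 257 TPM with PDBAG1. The lowest PDBAG1 library was above the highest vehicle library, and the PDBAG1 mean of 242 ± 14.8 TPM was 135% of the vehicle mean of 180 ± 8.77 TPM (SD, n = 3 per group; log2 difference 0.43, standard error 0.05). With vehicle, F3 stood above MYOF, and with PDBAG1 MYOF stood above F3, without overlap of their libraries in either group.

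By level per length, the order with vehicle ran from ANKRD1 over CCN1, AXL, F3, MYOF, CCN2, CRIM1, AMOTL2 and FJX1 to THBS1. Only FJX1 and THBS1 of these neighbours overlapped in their libraries. With PDBAG1 the order was CCN1, ANKRD1, AXL, MYOF, F3, CCN2, CRIM1, AMOTL2, FJX1 and THBS1, and no neighbours overlapped. Within the PDBAG1 group, replicate 3 gave the highest value of all 10 genes, MYOF included. Replicate 3 had a median-of-ratios scale factor of 1.05, against 0.988 and 1.02 in the others, and after division by these factors it was highest in 7 of the 10. Within the vehicle group, replicate 1 was highest in 8 of the 10, and after the same division in 2. 

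GENCODE places exon bases of other genes on those of 5 of the targets. FSIP1 and THBS1-AS1 lie opposite THBS1, LINC01013 opposite CCN2 and unnamed transcripts opposite CRIM1 and AXL, and the pseudogene RPL39P5 lies within AMOTL2. Whether the counting used strand is not given in the sources used here, so reads of these could not be told from those of the targets. FSIP1 was at 0.42 to 0.83 TPM. The others were not found by name among the 17631 genes, so their levels are unknown here.

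Of the 10 genes, 9 (all but THBS1) belong to a widely used signature of 22 YAP and TAZ targets, and the other 13 genes of that signature were read as a comparator. Their median log2 difference was 0.02, beside 0.03 for all genes tested. In the limma fit 3 were lower and 1 was higher at an adjusted p under 0.05, beside 15.9% and 21.7% of all genes tested. Of the 13 genes, 9 did not pass, and none changed 1.5-fold. Their summed level was 761 to 820 TPM with vehicle and 776 to 843 TPM with PDBAG1, which overlapped.

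TGFB2, a TGF-beta ligand, was the member of this set that fell most, from 36.1, 32.9 and 33.8 TPM to 23.6, 26.1 and 28.3 TPM (log2 difference -0.39, standard error 0.07, limma adjusted p = 0.000677). CCDC80, a matrix protein, fell from 11.1 ± 0.525 to 9.21 ± 0.514 TPM (SD, n = 3 per group; log2 difference -0.25, limma adjusted p = 0.0227). GADD45A, a stress-induced growth arrest gene, fell from 39.8 ± 1.45 to 34.9 ± 1.56 TPM (SD, n = 3 per group; log2 difference -0.19, limma adjusted p = 0.0181). LATS2, the Hippo kinase that YAP induces as feedback, rose from 13.6, 12.7 and 13.3 TPM to 16.1, 15.3 and 17.1 TPM (log2 difference 0.27, limma adjusted p = 0.00745). The call of GADD45A was lost without vehicle replicate 2 (log2 difference -0.16) or without PDBAG1 replicate 1 (-0.16), and that of CCDC80 without vehicle replicate 1 (-0.21), without PDBAG1 replicate 2 (-0.21) or in the fit blocked by replicate number (-0.25).

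The other 9 genes of the signature did not pass the threshold. IGFBP3, which binds insulin-like growth factors, averaged 37.8 ± 0.941 TPM in the vehicle group and 38.6 ± 1.00 TPM after PDBAG1 (SD, n = 3 per group), with a 95% interval of the log2 difference from -0.08 to 0.14. NT5E, the adenosine-forming ectoenzyme CD73 and the most abundant of the set, was at 549 ± 23.5 and 583 ± 25.5 TPM (SD, n = 3 per group; interval -0.0035 to 0.18). For PTPN14, a phosphatase that holds YAP in the cytoplasm, the interval was 0.02 to 0.36 (limma adjusted p = 0.0686). ASAP1, FOXF2, NUAK2, DOCK5, ARHGEF17 and RBMS3 had log2 differences from -0.11 to 0.14. Under quantile normalisation ARHGEF17 passed as lower (-0.18, limma adjusted p = 0.017), which made 4 lower genes in place of 3. Without vehicle replicate 1 or without PDBAG1 replicate 1, NT5E and PTPN14 also passed, so that 3 genes of the signature were higher in place of 1. Whether the 10 target genes and the 13 others differ cannot be tested here, because the 10 were chosen on this contrast.

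**Figure D3:**
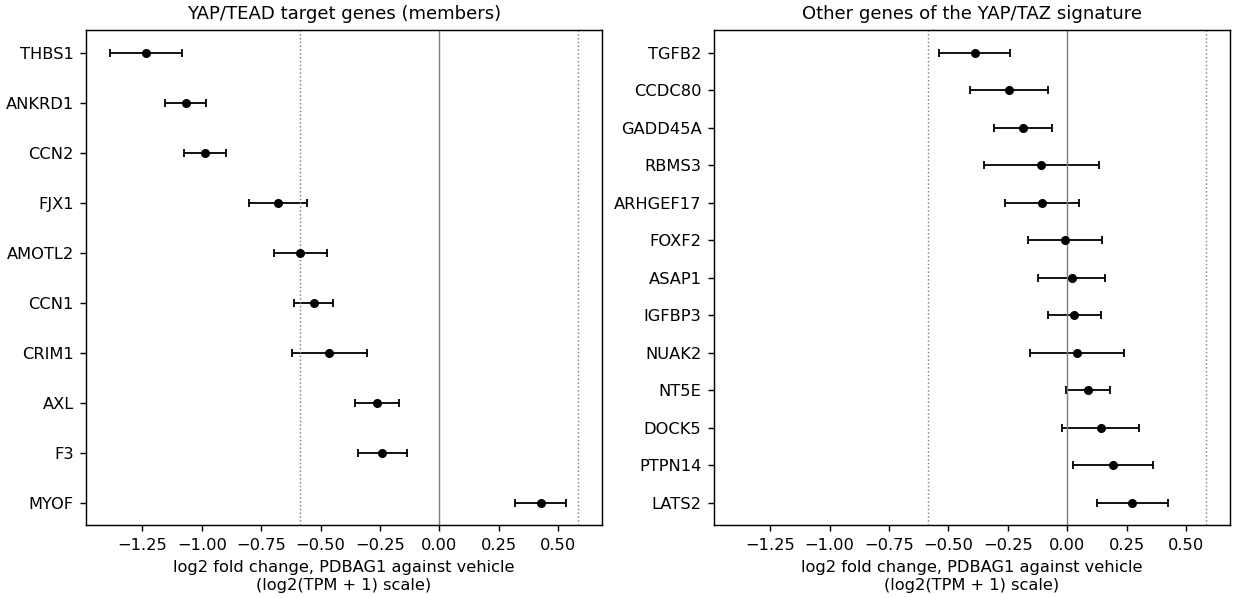
Log2 differences of PDBAG1 against vehicle on the log2(TPM + 1) scale for the 10 target genes (left) and the other 13 genes of the YAP/TAZ signature (right). Points are limma estimates from 3 libraries a group, bars are 95% intervals and dotted lines mark 1.5-fold. The left panel runs from -1.24 for THBS1 to 0.43 for MYOF, and the right panel from -0.39 for TGFB2 to 0.27 for LATS2.

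Promoter windows of the comparator genes were read for the same letters. Windows were available for 9 of the 13 genes, and 5 of these 9 held a core on either strand, beside 5 of the 8 target genes. These are counts of genes, whereas the 14% above is a share of windows. The 8 target genes had 10 windows and the 9 comparator genes had 9. NUAK2 held 2, and PTPN14, TGFB2, FOXF2 and LATS2 held 1 each, that of LATS2 after the annotated start. These 5 include genes that were lower, higher and not past the threshold.

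A further 7 genes reported as YAP or TAZ targets elsewhere were read next. Of the 7, 4 fell and 1 rose at a limma adjusted p under 0.05, beside 15.9% and 21.7% of all genes tested. The median log2 difference of the 7 was -0.16, beside 0.03 for all genes tested. AJUBA, a LIM protein that inhibits LATS kinases, fell most, from 120, 112 and 113 TPM to 72.9, 72.8 and 75.8 TPM (log2 difference -0.64, standard error 0.05, limma adjusted p = 2.11e-07), and was the gene of this list past 1.5-fold. EDN1, the vasoconstrictor endothelin-1, fell from 30.9, 30.0 and 30.9 TPM to 21.2, 21.2 and 23.4 TPM (log2 difference -0.46, limma adjusted p = 5.77e-05). BIRC5, the mitotic protein survivin, fell by 0.22 on the log2 scale (limma adjusted p = 0.000764) and CCND1, the G1 cyclin D1, by 0.12 (limma adjusted p = 0.0264). The rise of AREG, an EGFR ligand, from 19.2 ± 1.12 to 22.4 ± 2.06 TPM (SD, n = 3 per group; limma adjusted p = 0.0435) was lost in 9 of 13 alternative settings of the fit (pseudocount, filter, scaling, replicate block, variance trend and each library left out), among them each fit without vehicle replicate 2 or 3 or PDBAG1 replicate 2 or 3. The call of CCND1 as lower was lost in 7, among them each fit without vehicle replicate 1 or PDBAG1 replicate 1 or 2.

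Genes of the pathway above the targets were read next. WWTR1, which encodes TAZ, rose from 42.5, 39.3 and 36.5 TPM to 53.2, 59.5 and 61.1 TPM (log2 difference 0.54, limma adjusted p = 3.02e-05), whereas YAP1 was at 84.8, 79.7 and 76.8 TPM and at 83.1, 90.7 and 97.1 TPM, with groups that overlap and a call lost in 8 of 13 alternatives. TEAD4 fell from 32.7, 34.0 and 33.6 TPM to 27.6, 25.5 and 24.8 TPM (log2 difference -0.35, limma adjusted p = 0.000405). TEAD2 fell by 0.21 on the log2 scale (limma adjusted p = 0.0127, lost without vehicle replicate 3 or PDBAG1 replicate 2). TEAD1 (-0.16) and TEAD3 (0.16) did not pass in the main fit. TEAD1 passed as lower under median-of-ratios scaling and without PDBAG1 replicate 3, and TEAD3 as higher without vehicle replicate 1. VGLL4, which competes with YAP for TEAD, rose from 21.9, 19.7 and 17.7 TPM to 46.1, 49.1 and 51.6 TPM (log2 difference 1.27, limma adjusted p = 2.37e-08), and MAP4K4, a kinase able to activate LATS, rose from 67.4 ± 3.80 to 116 ± 5.78 TPM (SD, n = 3 per group; log2 difference 0.77). Of the 24 pathway genes tested, 4 were lower and 8 higher at the threshold, beside 15.9% and 21.7% of all genes. The lower share was thus near that background. LATS2, among the 8 higher, and PTPN14 also belong to the signature genes above. Over the alternatives 3 to 6 were lower and 5 (without the filter on low values) to 10 (without vehicle replicate 1) were higher. Activity of the kinases, phosphorylation and location of YAP and TAZ are not measured by RNA levels.

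Other regulators are known to drive some of the same targets, so their genes or targets were read in the same libraries. SRF with its co-activator MRTF drives CCN1, CCN2 and ANKRD1 together with genes of the actin cytoskeleton. Of 19 such actin-related genes tested, 9 rose and 3 fell at a limma adjusted p under 0.05, beside 21.7% and 15.9% of all genes tested. The share that fell was thus near that background, and the median log2 difference of the 19 was 0.17. MYH9, non-muscle myosin, rose most (log2 difference 0.56, limma adjusted p = 1.17e-06), followed by FLNA with 0.33 and TPM4 with 0.31, whereas FHL1 fell by 0.24 on the log2 scale. TGF-beta signalling through SMADs induces THBS1 and CCN2. Of 7 SMAD targets tested, 7 rose at a limma adjusted p under 0.05, beside 21.7% of all genes tested. The median log2 difference of the 7 was 0.37. Among them SMAD7, the feedback inhibitor of the pathway, rose from 2.14, 2.62 and 2.06 TPM to 3.44, 3.00 and 3.84 TPM (log2 difference 0.44, limma adjusted p = 0.00786). With a pseudocount of 5 the median of this list was 0.21, and the difference of SMAD7 ranged from 0.21 to 0.57 over 13 alternatives. The call of PMEPA1 in this list was lost under quantile normalisation, without vehicle replicate 3 and without PDBAG1 replicate 2 or 3.

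AP-1 factors share enhancers with TEAD and are known to drive F3 and AXL. Of 8 AP-1 genes tested, FOSB was under 1 TPM in every vehicle library (0.69, 0.39 and 0.70 TPM) and passed the filter only through its PDBAG1 levels of 3.61, 4.15 and 3.87 TPM, so that its difference was fixed by the filter. The other 7 rose at a limma adjusted p under 0.05, beside 21.7% of all genes tested. FOS rose from 2.16, 2.23 and 1.76 TPM to 9.62, 10.9 and 9.07 TPM (log2 difference 1.83, limma adjusted p = 1.45e-08), with a range of 1.07 to 2.21 over 13 alternatives, and JUNB, which also belongs to the SMAD targets, from 35.1, 36.4 and 33.3 TPM to 75.8, 77.8 and 70.2 TPM (log2 difference 1.07, limma adjusted p = 8.54e-09). FOSL1, the most abundant, changed less (log2 difference 0.18, limma adjusted p = 0.00967, groups overlapping), and its call was lost under median-of-ratios scaling and without the variance trend. FOSL2 lost its call without vehicle replicate 3.

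Proliferation genes were lower in the same libraries. Of 18 such genes, 16 fell and none rose at a limma adjusted p under 0.05, beside 15.9% and 21.7% of all genes tested. The median log2 difference of the 18 was -0.31. Their summed level was 2923 to 3073 TPM with vehicle and 2310 to 2468 TPM with PDBAG1. CCNE2, the S phase cyclin E2, fell from 35.2, 34.5 and 31.0 TPM to 19.8, 22.04 and 21.2 TPM (log2 difference -0.65, limma adjusted p = 6.30e-06), and MCM3, a subunit of the replicative helicase, fell by 0.50. MKI67 did not pass (log2 difference -0.05). The part of cycling or of cell density in the levels of the target genes was not tested.

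The binding partners of the targets that could be tested were mostly higher. Of 15 partner genes, CD36, F7 and F10 stayed under 1 TPM in every library and were not tested. Of 12 partner genes tested, 9 rose and 1 fell at a limma adjusted p under 0.05, beside 21.7% and 15.9% of all genes tested. The median log2 difference of the 12 was 0.30. The AXL ligand GAS6 fell, from 151, 143 and 152 TPM to 129, 127 and 132 TPM (log2 difference -0.20, limma adjusted p = 0.00249), and PROS1, the ligand of its relatives, rose (0.21, limma adjusted p = 0.0106). TFPI, an inhibitor of the F3 pathway, rose by 0.32 on the log2 scale. Its relative TFPI2 rose from 45.6, 45.9 and 45.8 TPM to 89.0, 92.0 and 90.6 TPM (log2 difference 0.97, limma adjusted p = 2.76e-09). Of the receptors for CCN1, CCN2 and THBS1, SDC4, a syndecan of focal adhesions, rose from 214 ± 2.02 to 352 ± 4.46 TPM (SD, n = 3 per group; log2 difference 0.72), LRP1 rose by 0.82, ITGAV by 0.39 and ITGB5 by 0.28, whereas CD47 was at 51.6 ± 2.46 and 55.1 ± 3.23 TPM (SD, n = 3 per group; 95% interval of the log2 difference -0.03 to 0.21).

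The identity of the cells was read from marker genes. VIM (4174 to 5942 TPM), CD44, MSN and CAV1 were abundant in both groups. VIM, CD44 and MSN were higher with PDBAG1 (log2 differences 0.46, 0.59 and 0.45), and CAV1 was lower (-0.30). Of the luminal markers PGR, CDH1 and FOXA1 were under 1 TPM in every library, while ESR1 was at 1.96 to 3.38 TPM and GATA3 at 2.73 to 3.88 TPM. SPARC, also set as a marker of this line, stayed under 1 TPM. The labels give a breast cancer tissue as source as well as the cell line. Of the markers of other cells, LUM and COL1A2 of fibroblasts, VWF and CDH5 of endothelium, CD79A of B cells and the 3 adipocyte markers were under 1 TPM throughout, and PTPRC was at 0.86 to 1.41 TPM. The fibroblast marker COL1A1 was at 3.89 to 4.92 TPM, and PDGFRB was at 1.62 to 2.01 TPM with vehicle and 2.39 to 2.51 TPM after PDBAG1 (limma adjusted p = 0.0355, lost in 7 of 13 alternatives). CD68 rose from 257 ± 6.55 to 318 ± 11.8 TPM, and PECAM1 rose from 3.94 ± 0.152 to 8.64 ± 0.680 TPM (SD, n = 3 per group). A level of 1 TPM or more was held by 12392 to 12611 genes a library. TPM keeps no depth, so the depth of the libraries is unknown and no counting error could be given.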

How the data were processed

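The 6 RNA libraries, 3 vehicle and 3 PDBAG1, were grouped by the treatment label. The TPM values were made and deposited by the authors. Their methods describe BGISEQ-500 sequencing, mapping with HISAT2 to GRCh38.p13 and FPKM values, whereas the submitters' processing notes name HISAT2 2.0.4, Bowtie2 2.2.5, RSEM 1.2.12 and GRCh38.p12. The annotation and the use of strand are not given in the sources used here. TPM is relative within a library, so a rise of abundant genes lowers the rest, and it keeps no depth.

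From these values log2(TPM + 1) was fitted in R 4.3.3 with limma 3.58.1 (lmFit, eBayes with trend) for genes at 1 TPM or more in at least 3 libraries, with Benjamini-Hochberg adjustment over 12582 genes. The steps were tested on simulated data. The target genes and gene lists were chosen with earlier results of these data known. The rule for names took all target genes, allowed any tested gene of the signature, relative and partner lists, and of other lists the called genes of largest change, at most 4 per direction, with YAP1, WWTR1 and TEAD1 to TEAD4. Not every gene it allows is named. PMEPA1, FOSL1, FOSL2, MKI67, the relatives and partners under the filter and the marker genes were named outside this rule, after their values were seen. Gene positions come from GENCODE v44 and promoter windows from RefSeq (GRCh38.p14). Alternatives covered the pseudocount, filter, scaling, fold limit, variance trend, a replicate block and each library left out. Same-numbered libraries did not deviate together (r = -0.21, 0.01 and -0.08).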

Additional observations from a re-analysis of the deposited data

How the results depend on the processing

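In the fit with a replicate block, although the labels tie no number to a shared culture, 9 target genes were lower and 1 higher, as without it. Target genes at an adjusted p under 0.05 numbered 9 lower and 1 higher in all 13 alternatives, which is no sign of stability since the genes were chosen on this contrast. Their median log2 difference ranged from -0.60 under median-of-ratios scaling to -0.54 with a pseudocount of 5. Past 1.5-fold, 4 or 5 were lower, AMOTL2 being the fifth, and 2 at a fold limit of 2. Of all genes, 60 were lower and 360 higher past 1.5-fold. The lower count was 100 with a pseudocount of 0.1, 25 with 5, 94 under quantile normalisation (beside 287 higher) and 7 at 2-fold, and the higher count was 183 with a pseudocount of 5 and 73 at 2-fold. At the adjusted p alone, 2000 lower and 2736 higher genes became 2741 and 2455 under median-of-ratios scaling and 2742 and 2404 under quantile normalisation. Among the other signature genes the median was -0.0593 under quantile normalisation, and the higher count was 1 to 3 as libraries were left out. The median of all genes tested, 0.0309, was -0.0074 under median-of-ratios scaling and -0.0198 under quantile normalisation. In the other lists signs turned in some genes, among them MKI67 and ESR1. Among the target genes and the other signature genes, signs turned only in genes near 0 that never passed. ASAP1 was -0.0228 under median-of-ratios scaling and -0.0217 under quantile normalisation, and -0.0346 to 0.0681 as libraries were left out. IGFBP3 was -0.0113 and -0.0146 under these scalings. NUAK2 was -0.0593 under quantile normalisation and -0.0065 to 0.1033 as libraries were left out, and FOXF2 -0.0286 to 0.0072. The causes of these shifts were not tested.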

Other observations

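Close relatives of the target genes were read in the same libraries. Of 14 relatives, 7 passed the expression filter, with log2 differences from -0.07 to 0.57. Of these 7, 3 rose and none fell at a limma adjusted p under 0.05, beside 21.7% and 15.9% of all genes tested. CCN3, the third founding member of the CCN family, rose from 13.5, 12.5 and 14.1 TPM to 19.1, 21.6 and 20.5 TPM (log2 difference 0.57, standard error 0.07, limma adjusted p = 3.70e-05), while CCN4, CCN6, THBS2 and THBS4 stayed under 1 TPM. THBS3 rose from 4.51, 3.95 and 4.83 TPM to 6.21, 7.09 and 7.01 TPM (log2 difference 0.52, limma adjusted p = 0.000808), and by 0.32 to 0.60 over 13 alternatives. DYSF, a ferlin like MYOF that acts in membrane repair, rose from 11.6 ± 0.738 to 14.8 ± 0.860 TPM (SD, n = 3 per group; log2 difference 0.33, limma adjusted p = 0.00374). The AXL relatives TYRO3 (95% interval of the log2 difference -0.11 to 0.22) and MERTK (-0.26 to 0.11) did not pass. AMOTL1 was at 15.3 ± 0.752 and 17.3 ± 0.866 TPM (SD, n = 3 per group) and passed only without PDBAG1 replicate 1 (log2 difference 0.20), and AMOT was under 1 TPM. ANKRD2 was at 0.69 to 1.08 TPM with vehicle and at 0.41 to 0.55 TPM with PDBAG1, too low to be tested.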
